A study of Mus musculus with 46 samples.

Results

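AgRP and POMC neurons of the arcuate nucleus (ARC) of the hypothalamus were compared by their ribosome-bound RNA in mice with free access to food. The comparison used 5 of the 46 samples of the series, 3 libraries from AgRP neurons (numbered 1, 3 and 4) and 2 from POMC neurons (numbered 1 and 2). The genes described are channels, receptors, transcription factors and secreted peptides, sorted into these classes by their symbols. The count table held 2161 such genes among 31854, and 1311 of them, among 13453 genes in all, passed a filter of a mean above 1 CPM (counts scaled to a common library size) over the 5 libraries.

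In the NuTRAP line, Cre switches on 2 labels, GFP on the ribosomal protein L10a for pulling down RNA in translation and mCherry on the outside of the nucleus for sorting. The mice were crossed to a Cre line driven from the AgRP gene (AgRP-IRES-Cre) or from the POMC gene (POMC-IRES-Cre), so the tag marks every cell that has Cre or had it earlier in life. All mice of the fed comparison were male C57BL/6J, 6 to 11 weeks old, fed ad libitum and given PBS, the vehicle for leptin, and 4 ARCs were pooled per library. The library is therefore the unit of replication.

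The neurons compared sit side by side and oppose each other in the control of feeding. AgRP neurons release agouti-related peptide, neuropeptide Y and GABA and drive eating. POMC neurons cleave pro-opiomelanocortin into melanocortin peptides that reduce eating through the melanocortin receptors MC3R and MC4R, at which agouti-related peptide acts as an antagonist. Each cell type reads hormones and peptides through its receptors, sets its firing with potassium, TRP and calcium channels, and keeps its identity through transcription factors of the homeodomain, SOX and forkhead families.

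The libraries held 25581041 to 53217053 counts. AgRP fed 4 and POMC fed 2 stood apart from the other fed libraries, with 1.93% and 2.14% of counts from Slc1a2, an astrocyte glutamate transporter, against 0.346% to 0.581% in the rest. These libraries correlated with each other at 0.987 (log2 CPM across genes), above the 0.985 and 0.981 of AgRP fed 4 with the other AgRP libraries. One library of this kind fell in each group, so each result was also fitted with the kind of library as a covariate and its ratios taken within each kind. Over 12 astrocyte markers the summed level was 4322 to 22090 CPM in AgRP and 6894 to 25690 CPM in POMC libraries, and no marker was at 0.

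Promoters of 4 genes are shown, each with a large difference in RNA below and with open chromatin measured over it. They are not the 4 largest differences, and they were picked from a larger set of promoters. Every window shown holds a motif, while those of Ghsr, Prdm12 and Prokr1, not shown, held 0 of the motifs searched. They are the 250 bases before the RefSeq start site (GRCm38.p6), read 5′ to 3′ on the strand of the gene, with capitals for motifs found on either strand. The motifs searched were the TATA box as TATAAA, the CCAAT box by those letters, a forkhead site as GTAAACA, a homeodomain site as TAATTA, the cAMP response element as TGACGTCA, a STAT site as TTCNNNGAA and an E-box as CAGCTG. Npy and Otp were higher in AgRP neurons, and Pomc and Cartpt were lower.
Npy, chr6:49822460-49822709, plus strand: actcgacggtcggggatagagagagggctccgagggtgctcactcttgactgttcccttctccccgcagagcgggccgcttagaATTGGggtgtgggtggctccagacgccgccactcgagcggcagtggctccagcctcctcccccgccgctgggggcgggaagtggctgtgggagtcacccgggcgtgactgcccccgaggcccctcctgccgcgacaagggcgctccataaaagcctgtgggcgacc
Otp, chr13:94875386-94875635, plus strand: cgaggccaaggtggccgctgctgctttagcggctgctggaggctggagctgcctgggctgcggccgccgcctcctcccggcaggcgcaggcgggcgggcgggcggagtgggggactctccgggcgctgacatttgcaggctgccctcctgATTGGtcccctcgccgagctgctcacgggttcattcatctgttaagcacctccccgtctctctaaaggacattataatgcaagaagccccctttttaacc
Pomc, chr12:3954695-3954944, plus strand: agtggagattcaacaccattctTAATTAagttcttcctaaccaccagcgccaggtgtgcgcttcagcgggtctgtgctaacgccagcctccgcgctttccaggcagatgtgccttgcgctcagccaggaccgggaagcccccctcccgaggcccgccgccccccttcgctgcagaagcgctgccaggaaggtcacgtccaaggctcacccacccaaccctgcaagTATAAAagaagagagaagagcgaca
Cartpt, chr13:99900684-99900933, minus strand: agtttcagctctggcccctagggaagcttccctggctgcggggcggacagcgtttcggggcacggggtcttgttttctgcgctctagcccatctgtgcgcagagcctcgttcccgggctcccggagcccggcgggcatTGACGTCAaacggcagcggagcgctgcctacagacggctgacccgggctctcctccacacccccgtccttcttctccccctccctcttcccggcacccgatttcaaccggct
The Npy and Otp windows each held 1 CCAAT box, a motif found in 34.5% of 27025 promoters of this length. In the Pomc window a TATA box began 25 bases before the start site, and a TAATTA lay 228 to 223 bases before it. These motifs were in 13% and 4.9% of all promoters. The Cartpt window held a cAMP response element 112 to 105 bases before the start site, which 1.62% of all promoters held. Of the 95 genes of the 4 classes that passed the test below, 68 had a promoter in the reference table, 34 higher and 34 lower in AgRP neurons. The forkhead motif was in 1 promoter of a gene higher in AgRP neurons and in 0 of a gene lower, against 3.09% of all promoters, and the homeodomain motif was in 0 and 2.

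Between AgRP and POMC neurons, 48 genes of the 4 classes were higher in AgRP neurons and 47 were lower. A gene was called when its Benjamini-Hochberg adjusted p from edgeR's quasi-likelihood test was under 0.05 and its log2 fold change (AgRP minus POMC) lay beyond 0.5 on either side. Over all genes tested, 147 were higher (1.09%) and 146 were lower (1.09%), 2.18% in all. By class, 42 of 357 receptors were called (11.8%), 20 of 228 secreted peptides (8.77%), 11 of 234 channels (4.7%) and 22 of 492 transcription factors (4.47%). Of the 48 higher genes, 7 had a mean under 1 CPM in POMC libraries, and of the 47 lower genes 2 had a mean under 1 CPM in AgRP libraries, so these passed the filter through the higher group alone. The median log2 difference was -0.16 over the 1311 genes and -0.01 over all genes tested. In bulk RNA, fewer cells of a type and less RNA per cell cannot be told apart.

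**Figure D1:**
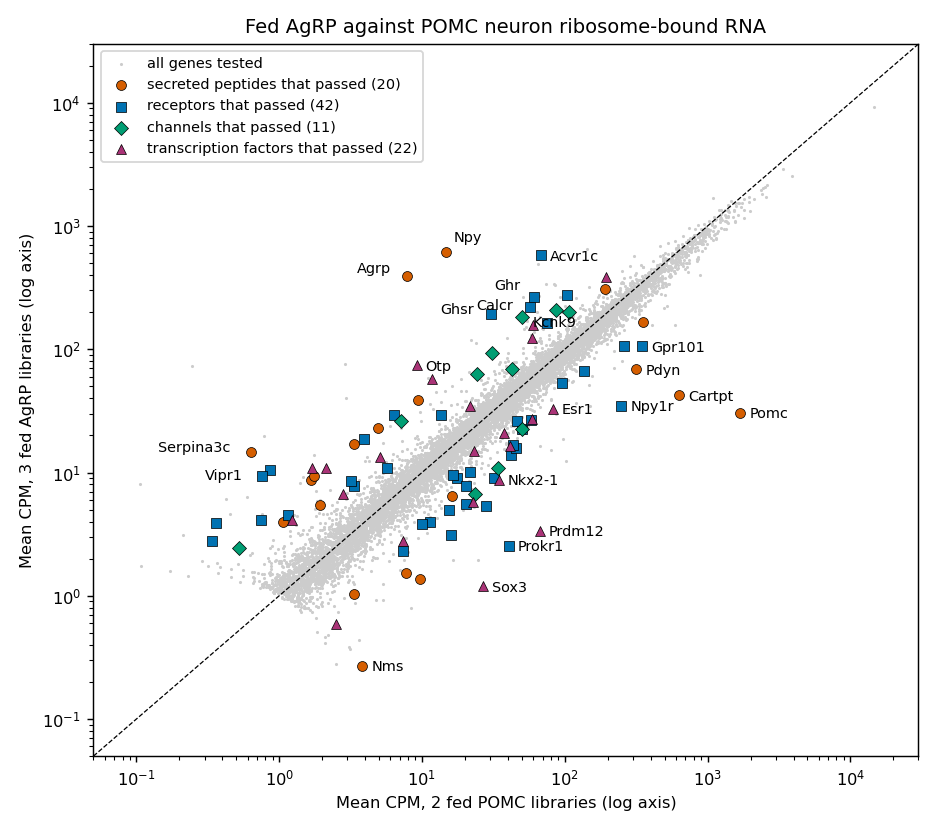
Mean CPM of 3 fed AgRP libraries (y axis, log) against that of 2 fed POMC libraries (x axis, log) for 13453 genes in grey, with the 95 genes of the 4 classes that passed the test in colour and the dashed line marking equal levels. Agrp and Npy lie farthest above the line among the coloured points and Pomc farthest below it.

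All 95 called genes had AgRP libraries that did not overlap the POMC libraries, a separation that 30.1% of all genes tested also showed. With the kind of library as a covariate all 95 stayed called. Within each kind, 48 of 48 higher and 47 of 47 lower genes kept their direction. This is no separate test, because libraries that do not overlap give the same sign in every pair. Over all genes tested, 8999 of 13453 kept their direction in both kinds. Without AgRP fed 1, 10 of the 48 and 7 of the 47 stayed called, against 18 and 15 without POMC fed 1, 21 and 30 without POMC fed 2, 28 and 22 without AgRP fed 3, and 45 and 36 without AgRP fed 4. Every one of the 95 that was tested kept its direction in each of these fits, which libraries that do not overlap all but fix in advance. Of the 95, 17 stayed called without AgRP fed 1.

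Within the 4 classes, the neuropeptide precursors held the largest differences. Of 55 neuropeptide precursors and granins tested, 2 were higher and 7 lower in AgRP neurons. Agrp, the antagonist of melanocortin receptors, was at 317, 513 and 339 CPM in AgRP libraries 1, 3 and 4 and at 5.97 and 9.83 CPM in POMC libraries 1 and 2. All AgRP libraries were far above both POMC libraries, a 49.3-fold difference (log2 5.62 ± 0.37 SE, edgeR adjusted p = 0.00356). Npy, which encodes the appetite-raising neuropeptide Y, was at 373, 802 and 655 CPM in AgRP and 10.6 and 19.0 CPM in POMC libraries. It was 41.2-fold higher (log2 5.36 ± 0.48 SE, edgeR adjusted p = 0.00604), and its AgRP libraries spread more widely than those of Agrp.

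On the POMC side, Pomc itself was at 21.9, 32.1 and 37.5 CPM in AgRP libraries and 2098 and 1298 CPM in POMC libraries. It was 55.8-fold lower in AgRP neurons (log2 -5.80 ± 0.34 SE, edgeR adjusted p = 0.0026). Cartpt encodes CART, a peptide that reduces feeding, and was at 33.4, 46.9 and 46.3 CPM in AgRP libraries and 791 and 472 CPM in POMC libraries. The difference was 15-fold (log2 -3.90 ± 0.27 SE, edgeR adjusted p = 0.00391), and both POMC libraries were well above every AgRP library. Per kilobase of gene length, Npy was at 1082 CPM and Agrp at 278 CPM in AgRP libraries, and Pomc was at 1282 CPM and Cartpt at 722 CPM in POMC libraries.

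Further peptides were lower in AgRP neurons. Pdyn, the precursor of dynorphin opioids, was at 71.2, 63.5 and 71.4 CPM in AgRP and 366 and 269 CPM in POMC libraries, 4.62-fold lower. Nms, encoding neuromedin S, reached 0.125 to 0.355 CPM in AgRP and 4.25 and 3.37 CPM in POMC libraries. Prok2, encoding the peptide prokineticin 2, was at 0.901 to 1.74 CPM in AgRP libraries and at 11.6 and 7.72 CPM in POMC libraries. Nppc, the precursor of C-type natriuretic peptide, was at 1.37 to 1.75 CPM against 8.41 and 7.01 CPM. Nms, Prok2 and Nppc were thus low in both neuron types, and lower in AgRP neurons by 14.4-fold, 7.16-fold and 5.04-fold (edgeR adjusted p = 0.00789, 0.0111 and 0.00546). The lowest count of any called gene in a fed library was 5.

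Among other secreted proteins, 9 were higher in AgRP neurons and 2 lower. Serpina3c, a member of the alpha-1-antichymotrypsin family of protease inhibitors, was at 15.3, 16.9 and 11.5 CPM in AgRP libraries and at 0.947 and 0.331 CPM in POMC libraries, 22.9-fold higher. Serpina3i and Serpina3g of the same gene cluster were also higher, 5.35-fold and 3.72-fold, but near-identical copies of the cluster can share reads and how the counting split them is not known, so the share of each copy is uncertain. Rspo4, an R-spondin that amplifies Wnt signalling, was at 8.11, 9.81 and 8.37 CPM against 1.61 and 1.72 CPM (5.26-fold). Rbp4, a carrier of retinol, was 5.07-fold higher and Thbs1, an extracellular matrix protein, 4.71-fold. The angiopoietins split, with Angpt1 higher (mean 38.6 ± 7.16 CPM, SD over 3 AgRP libraries, against 9.33 ± 0.674 CPM over 2 POMC libraries) and Angpt2, its usual antagonist at the receptor TIE2, lower (1.03 ± 0.182 against 3.34 ± 1.13 CPM). Pdgfd, a platelet-derived growth factor, was 2.82-fold higher and Olfm1, a secreted olfactomedin, 1.60-fold, while Slit1, an axon guidance ligand, was 2.11-fold lower and Nxph3, a neurexin ligand grouped with the neuropeptides, 2.51-fold.

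**Figure D2:**
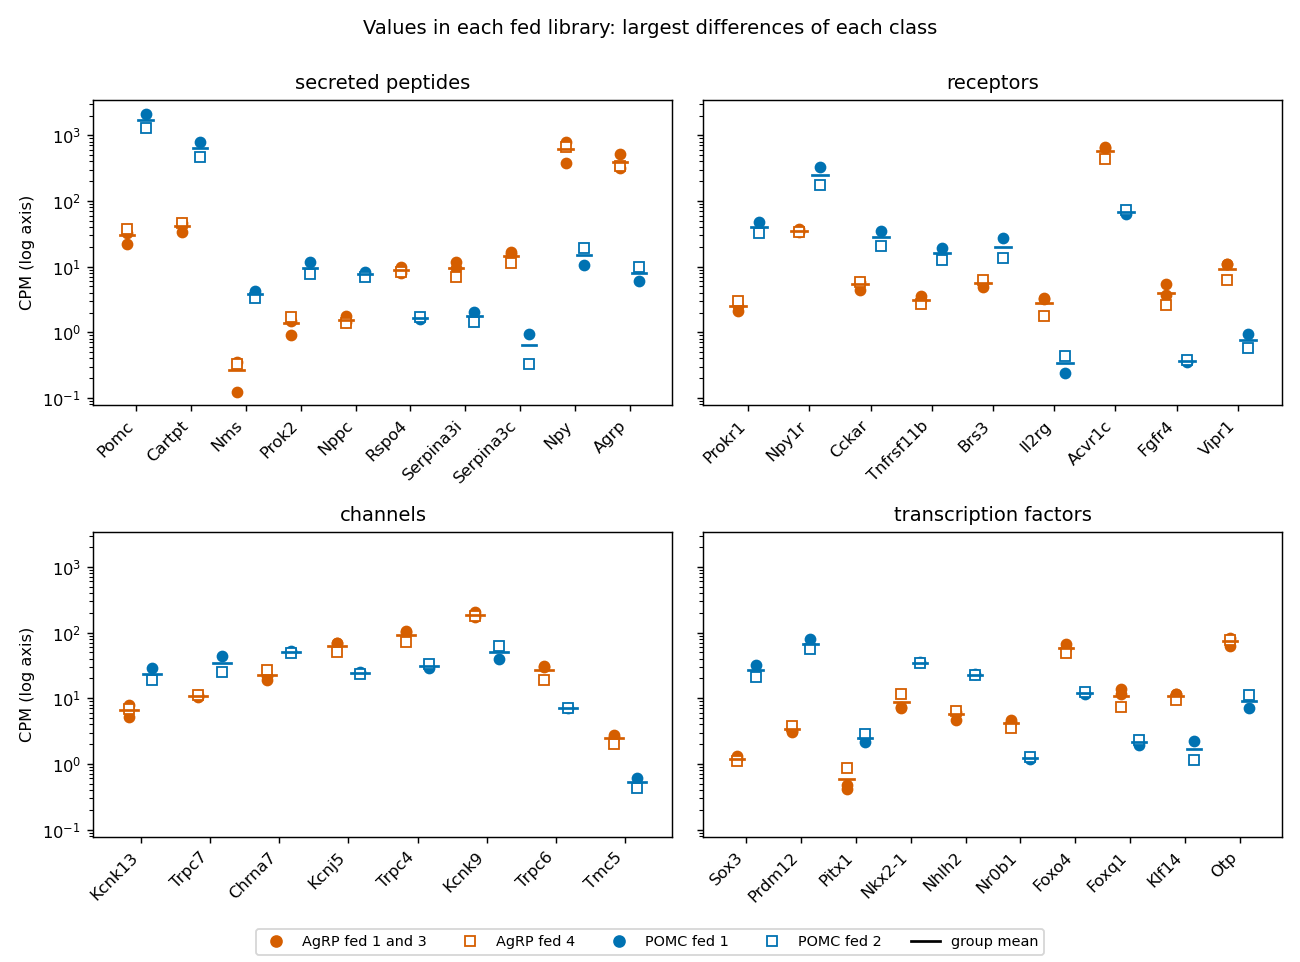
CPM in each fed library (log axis) for up to 5 of the largest differences in each direction in each class, with AgRP libraries in orange, POMC libraries in blue and a line at each group mean. Open squares are AgRP fed 4 and POMC fed 2, the libraries with the high Slc1a2 share, and in each gene all orange points lie on one side of all blue points.

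Receptors for peptides held 23 of the 42 called receptors. Of 71 peptide G protein-coupled receptors tested, 10 were higher and 13 lower in AgRP neurons (32.4% called, against 2.18% of all genes). Prokr1, a receptor for prokineticins, was at 2.54, 2.08 and 3.02 CPM in AgRP and 48.5 and 32.7 CPM in POMC libraries. It was 16.1-fold lower in AgRP neurons (log2 -4.01 ± 0.23 SE, edgeR adjusted p = 0.0026), the largest receptor difference in that direction. Its ligand gene Prok2 was lower as well, and the same held for Nms with Nmur2, a receptor for neuromedin S (4.99 ± 1.60 against 15.5 ± 2.81 CPM, 3.14-fold lower).

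The receptors for neuropeptide Y split between the cell types. Npy1r was at 37.6, 33.2 and 33.3 CPM in AgRP libraries and 326 and 174 CPM in POMC libraries. It was 7.2-fold lower in AgRP neurons (log2 -2.85 ± 0.26 SE, edgeR adjusted p = 0.00612). Npy5r, which also binds neuropeptide Y, was at 15.8, 13.6 and 12.0 CPM against 52.2 and 31.9 CPM and was 3.04-fold lower. Npy2r, known as an autoreceptor on neuropeptide Y neurons, was at 269, 327 and 235 CPM in AgRP libraries and at 123 and 84.1 CPM in POMC libraries. It was 2.67-fold higher in AgRP neurons (edgeR adjusted p = 0.0314), the opposite direction to Npy1r and Npy5r.

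Hormone receptors higher in AgRP neurons included Ghsr, the ghrelin receptor, at 214, 220 and 143 CPM against 22.4 and 38.7 CPM in POMC libraries, 6.30-fold (log2 2.66 ± 0.31 SE, edgeR adjusted p = 0.0126). Ghr, the growth hormone receptor, was at 267, 313 and 210 CPM against 63.3 and 58.9 CPM, 4.31-fold higher. Calcr, the calcitonin receptor, was at 208, 242 and 213 CPM against 54.1 and 60.6 CPM, 3.85-fold higher. In each, the lowest AgRP library was above the higher POMC library by more than 3-fold. Acvr1c, the type I receptor ALK7 for activins and related ligands, was at 632, 670 and 439 CPM against 63.7 and 72.2 CPM (8.54-fold). Crhr1, a receptor for corticotropin-releasing hormone, was 4.62-fold higher, and Npffr2, a receptor for neuropeptide FF, was 4.72-fold higher.

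Some receptors were near the filter in POMC neurons. Vipr1, a receptor for vasoactive intestinal peptide, was at 10.9, 10.9 and 6.25 CPM in AgRP libraries against 0.947 and 0.579 CPM. It was 12.3-fold higher (edgeR adjusted p = 0.00843), with AgRP library 4 the lowest of the AgRP libraries. Fgfr4, a fibroblast growth factor receptor, was 10.8-fold higher and Il2rg, the common gamma chain of interleukin receptors, 8.13-fold. Adra2a and Adra1b, receptors for noradrenaline, were lower in AgRP neurons (2.18-fold and 2.16-fold).

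Peptide receptors lower in AgRP neurons included Cckar, a cholecystokinin receptor, at 5.92, 4.48 and 5.76 CPM against 35.3 and 20.9 CPM (5.22-fold). Brs3, an orphan receptor of the bombesin family, was at 5.6, 4.9 and 6.17 CPM against 27.0 and 13.4 CPM (3.65-fold), while Nmbr of the same family was 3.92-fold higher in AgRP neurons. Oxtr, the oxytocin receptor, was 3.59-fold lower and Ntsr1, a neurotensin receptor, 2.90-fold. Glp1r, the receptor for glucagon-like peptide 1, was at 16.9, 14.2 and 19.2 CPM against 43.1 and 43.4 CPM (2.58-fold lower, edgeR adjusted p = 0.00903). Tnfrsf11b, a soluble decoy receptor named osteoprotegerin, was 5.05-fold lower, and Gpr101, an orphan receptor, was at 101, 79.3 and 136 CPM against 398 and 300 CPM (3.30-fold). The GDNF family co-receptors split, with Gfra2 2.17-fold higher and Gfra1 2.48-fold lower in AgRP neurons. The other called receptors with a higher level in AgRP neurons were Bdkrb2 (a bradykinin receptor, 5.49-fold), Agtr1a (an angiotensin receptor, 2.68-fold), Chrm4 (a muscarinic receptor, 2.33-fold), Gpr179 (an orphan receptor, 2.17-fold) and Avpr1a (a vasopressin receptor, 1.90-fold). Those with a lower level included Rxfp1 (a relaxin receptor, 3.19-fold), F2rl2 (a protease-activated receptor, 2.85-fold), Ptk7 (a pseudokinase of Wnt signalling, 2.62-fold), Prlhr (the prolactin-releasing peptide receptor, 2.60-fold), Unc5b (a netrin receptor, 2.23-fold), Drd2 (a dopamine receptor, 1.94-fold), Sstr1 (a somatostatin receptor, 1.80-fold), Il13ra1 (an interleukin 13 receptor chain, 1.75-fold) and Gpr149 (an orphan receptor, 1.73-fold).

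**Figure D3:**
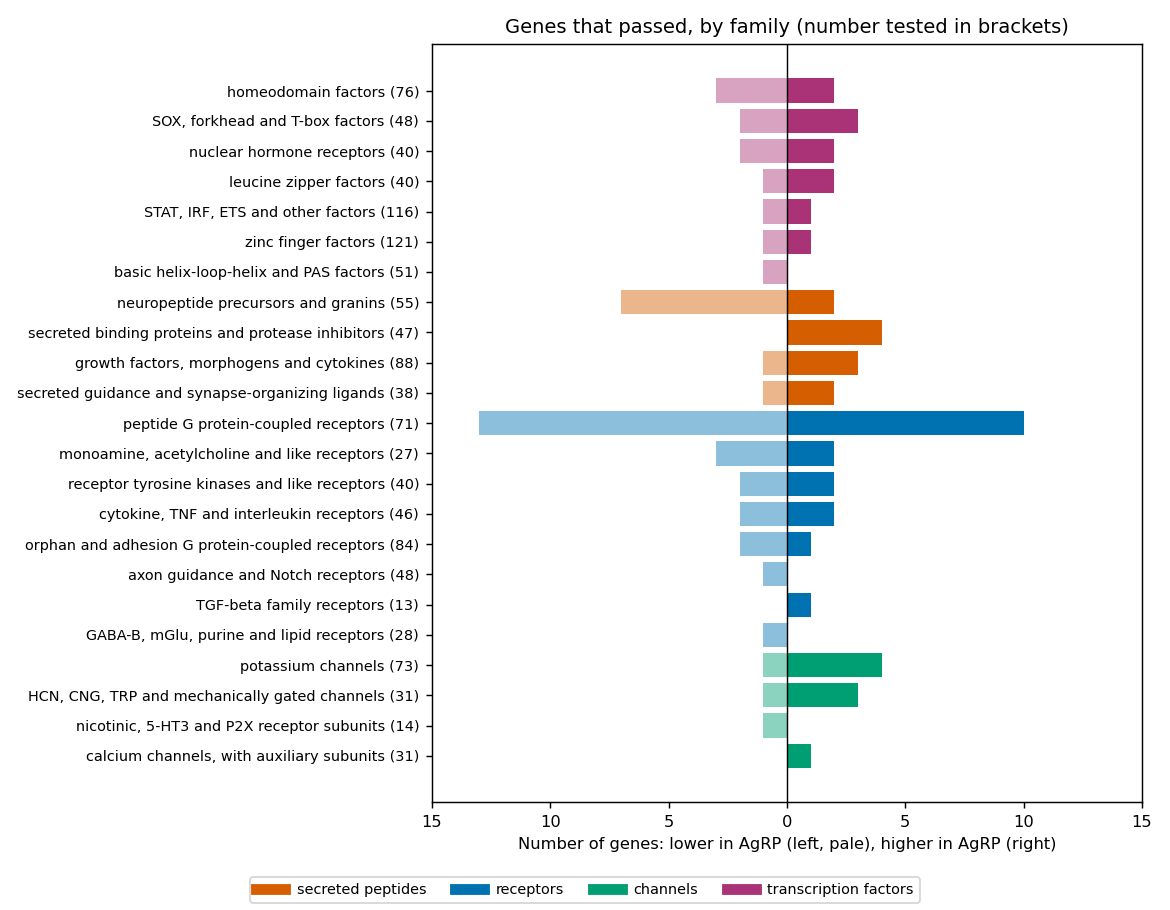
Number of genes that passed the test in each family of the 4 classes (x axis, to the right of 0 higher and to the left lower in AgRP neurons), for families with at least 1 such gene and with the number tested in brackets. Peptide G protein-coupled receptors have the longest bars, 10 higher and 13 lower of 71.

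Of 234 channels tested, 8 were higher and 3 lower in AgRP neurons, all with differences under 5-fold. Kcnk9, a tandem-pore potassium leak channel, was at 171, 203 and 178 CPM in AgRP libraries and 39.1 and 61.5 CPM in POMC libraries. It was 3.67-fold higher (log2 1.87 ± 0.22 SE, edgeR adjusted p = 0.0124). Kcnk2 of the same family was at 196, 215 and 193 CPM against 108 and 106 CPM (1.88-fold higher), and Kcnk13 was at 7.83, 5.18 and 6.92 CPM against 28.4 and 18.8 CPM (3.56-fold lower). The tandem-pore family thus held genes that passed in each direction.

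The TRPC cation channels split in the same manner. Trpc6 was at 30.8, 29.6 and 18.9 CPM against 7.09 and 7.06 CPM and Trpc4 at 102, 106 and 70.7 CPM against 28.4 and 33.4 CPM, 3.74-fold and 3.00-fold higher in AgRP neurons. Trpc7 was at 11.1, 10.5 and 11.1 CPM against 43.4 and 25.0 CPM, 3.13-fold lower. Kcnj5, a G protein-gated inward rectifier, was 2.61-fold higher, Kcnf1, a silent voltage-gated subunit, 2.39-fold, and Cacna1d, the pore of a low-threshold L-type calcium channel, 1.60-fold. Chrna7, a nicotinic receptor subunit, was 2.23-fold lower. Tmc5 of the transmembrane channel-like family was at 0.617 and 0.435 CPM in POMC libraries and 2.03 to 2.78 CPM in AgRP libraries. By edgeR's test 0 of 18 GABA-A and glycine receptor subunits, 0 of 17 ionotropic glutamate receptor subunits and 0 of 14 sodium channels were called, with 3, 3 and 4 of them at an unadjusted p under 0.05 and 2 in each family called by DESeq2. No channel stayed called without AgRP fed 1 (0 of 11) and 2 of 11 did without POMC fed 1.

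Transcription factors passed the test 11 times in each direction. Otp, a homeodomain factor of hypothalamic peptide neurons, was at 62.1, 84.0 and 75.6 CPM in AgRP libraries and at 7.16 and 11.2 CPM in POMC libraries. It was 8.05-fold higher in AgRP neurons (log2 3.01 ± 0.24 SE, edgeR adjusted p = 0.00437). Bsx, a homeodomain factor linked to Agrp and Npy expression, was at 12.2, 12.8 and 14.8 CPM against 4.98 and 5.26 CPM (2.59-fold). Both are homeodomain genes, as are Nkx2-1, Six3 and Pitx1, which were lower in AgRP neurons.

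The forkhead factors that passed the test, Foxo4, Foxo1 and Foxq1, were higher in AgRP neurons. Their wider family did not lean that way. Of 48 SOX, forkhead and T-box factors tested, 3 were called higher and 2 lower. Only 9 of the 48 had a log2 difference above 0, and the median was -0.32. Foxo4 was at 57.9, 65.9 and 48.0 CPM against 11.4 and 12.2 CPM (4.84-fold, edgeR adjusted p = 0.00421). Foxo1, which insulin signalling excludes from the nucleus, was at 175, 170 and 131 CPM against 45.9 and 74.1 CPM (2.64-fold, edgeR adjusted p = 0.0422). Foxq1 was 5.17-fold higher. Klf14, a zinc finger factor, was 6.45-fold higher, and Nr0b1, an orphan nuclear receptor, 3.34-fold. Fosl2 of the AP-1 family (2.09-fold), Nr3c1, the glucocorticoid receptor (1.97-fold), and Crem (1.62-fold) were also higher, as was Fli1, an ETS factor (2.41-fold). Crem was the called gene closest to the threshold (edgeR adjusted p = 0.0497), and Ror2, a receptor tyrosine kinase, was the nearest outside it (0.0536).

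On the POMC side, Sox3 was at 1.17, 1.30 and 1.12 CPM in AgRP libraries and 32.3 and 21.3 CPM in POMC libraries, 22.2-fold lower (log2 -4.47 ± 0.23 SE, edgeR adjusted p = 0.00212). Prdm12, a zinc finger factor needed for Pomc expression, was at 3.22, 3.03 and 3.81 CPM against 78.7 and 55.3 CPM, 20.1-fold lower (log2 -4.33 ± 0.20 SE, edgeR adjusted p = 0.0015). In both, every AgRP library was under 4 CPM. Nkx2-1, a homeodomain factor of the developing hypothalamus, was at 6.99, 7.45 and 11.6 CPM against 35.1 and 33.9 CPM, and Nhlh2, a basic helix-loop-helix factor, at 6.14, 4.58 and 6.42 CPM against 23.2 and 22.2 CPM. Each was 3.99-fold lower. Esr1, the estrogen receptor alpha, was at 32.8, 32.4 and 33.8 CPM against 88.9 and 75.5 CPM (2.49-fold), and Sox1 and Six3 were 2.19-fold and 2.55-fold lower. Creb3l1, a factor of the endoplasmic reticulum, was 2.67-fold lower, Rxrg, a retinoid X receptor, 1.78-fold, and Hsf4, a heat shock factor, 1.55-fold.

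Pitx1, a pituitary homeodomain factor, was 4.41-fold lower in AgRP neurons at under 3 CPM in every library. Because Pomc is also made in the pituitary, 13 pituitary and pars tuberalis markers were listed. Their summed level over the 6 that passed the filter was 12.2 to 14.7 CPM in AgRP and 15.8 to 26.7 CPM in POMC libraries. Pitx1 was the 1 of 6 called by edgeR, with 3 at an unadjusted p under 0.05 and 3 called by DESeq2. The median log2 difference of the 6 was -0.93, and 1 of them was above 0. Gh was at 0 in AgRP fed 1 and POMC fed 1, and Pou1f1 had 7 counts over all 17 AgRP and POMC libraries. The part of pituitary RNA in the differences was not tested.

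Most markers of each cell type went in the labelled direction. The log2 difference was above 0 in 9 of 9 AgRP neuron markers and in 1 of 10 POMC neuron markers. Of the 9 AgRP neuron markers 8 were called higher in AgRP libraries, including Corin, a serine protease (26.1-fold), and Hsd11b2, which inactivates corticosterone (67.7, 82.2 and 67.7 CPM in AgRP libraries against 0.176 and 0.310 CPM). Of the 10 POMC neuron markers 6 were called lower, and Tbx3, Isl1, Pcsk1 and Nr5a1 were not called. The markers of other arcuate neurons gave 2 called of 21, Pdyn and Crabp1, both lower in AgRP neurons, with 12 at an unadjusted p under 0.05 and 8 called by DESeq2. Their median log2 difference was -0.46 and their summed level 808.5 to 1144 CPM in AgRP against 1337 to 1602 CPM in POMC libraries, and the part of such neurons in the genes lower in AgRP neurons was not tested. The lists of astrocytes (12 tested), oligodendrocytes (14), microglia (9), tanycytes and ependyma (13) and vessels (12) gave 0 called genes by edgeR, with 0, 2, 0, 2 and 2 at an unadjusted p under 0.05 and 0, 0, 0, 2 and 0 by DESeq2. The summed tanycyte and ependymal level was 231.9 to 344 CPM in AgRP and 362.4 to 447.7 CPM in POMC libraries, and that of vessels was 176.5 to 207.3 against 212.5 to 229.9 CPM. Both sums were higher in every POMC library, and their part in the genes lower in AgRP neurons was not tested.

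Outside the 4 classes, the largest differences were Hsd11b2 (292-fold higher), Corin, Gm8773 (25.0-fold), Aknad1 (14.2-fold) and Tgfbi, a matrix protein (13.8-fold), in AgRP neurons, and D330045A20Rik (12.7-fold), Cdc20b (10.4-fold), Mpzl2 (8.79-fold) and Fmod, the matrix proteoglycan fibromodulin (8.65-fold), in POMC neurons.

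Of 16 transmitter identity genes, Slc18a3, the vesicular acetylcholine transporter, was higher in AgRP neurons (6.03 ± 1.14 against 1.95 ± 0.146 CPM), and Slc18a2, the vesicular monoamine transporter, was lower (36.6 ± 7.37 against 119 ± 20.5 CPM). Slc32a1, the vesicular GABA transporter, was at 230, 305 and 269 CPM against 169 and 172 CPM (log2 0.65 ± 0.15 SE, edgeR adjusted p = 0.118), and Slc17a6, the vesicular glutamate transporter VGLUT2, at 211, 193 and 243 CPM against 288 and 335 CPM (log2 -0.53 ± 0.15 SE, edgeR adjusted p = 0.185). Neither passed by edgeR, although their libraries did not overlap. Both passed by DESeq2 (adjusted p = 0.00336 for Slc32a1 and 0.0338 for Slc17a6). With the kind of library as a covariate Slc32a1 also passed (log2 0.65, edgeR adjusted p = 0.0409). Slc17a6 then missed only the fold change threshold (log2 -0.493, edgeR adjusted p = 0.0306). Gad1 and Gad2, the GABA-synthesizing enzymes, overlapped (log2 0.13 ± 0.17 and -0.18 ± 0.23 SE). Of 18 prohormone processing genes 0 were called by edgeR, with 5 at an unadjusted p under 0.05 and 1 called by DESeq2. Pcsk1, the convertase that cuts pro-opiomelanocortin, was at 131 ± 6.25 against 167 ± 21.5 CPM, and Pcsk2, Cpe and Pam had log2 differences of -0.24, -0.03 and -0.02.

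A list of 34 tested genes covered leptin, insulin, ghrelin and melanocortin signaling and other feeding signals, such as receptors for neuropeptide Y, glucagon-like peptide 1 and activins. Of these, 4 were higher (Acvr1c, Ghsr, Foxo1, Npy2r) and 3 lower (Npy1r, Npy5r, Glp1r) in AgRP neurons. That was 20.6% of the list, against 2.18% of all genes tested, with 13 at an unadjusted p under 0.05 and 7 called by DESeq2. Lepr, the leptin receptor, was at 88.4, 110 and 38.7 CPM in AgRP libraries and 45.5 and 30.5 CPM in POMC libraries. AgRP library 4 lay within the POMC range, and the difference did not pass (log2 1.06 ± 0.43 SE, edgeR adjusted p = 0.361). With the kind of library as a covariate Lepr did not pass either (log2 0.79, edgeR adjusted p = 0.0667). Stat3, which carries the leptin signal to the nucleus, was at 249 ± 35.8 against 164 ± 32.7 CPM (edgeR adjusted p = 0.223, and 0.0373 with the covariate, where it passed) and Insr, the insulin receptor, at 102 ± 8.26 against 109 ± 7.44 CPM. Mc3r and Mc4r, the melanocortin receptors, were at 59.7 ± 12.1 against 42.4 ± 9.38 CPM and 2.34 ± 0.220 against 3.23 ± 0.0533 CPM, and neither passed. Of 18 immediate early genes 2 were higher, Fosl2 and Btg2 (a cell cycle inhibitor, log2 1.74).

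The same contrast was examined in libraries from other states, which shared no library with the fed ones. In mice fasted overnight (4 AgRP and 2 POMC libraries), 76 of the 92 called genes that were tested were called in the same direction and 89 of 92 had the same sign, against 7.2% of all genes called in that state (4.44% higher and 2.76% lower in AgRP neurons). In fasted mice given leptin (4 and 2 libraries), 74 of 94 were called in the same direction and 92 of 94 had the same sign, with 4.68% of all genes called (2.75% higher and 1.93% lower). In each state 1 library per cell type was also of the kind with the high Slc1a2 share. Over all genes tested in both states, 74.9% had the same sign in fasted mice and 74.0% in leptin-treated mice. Of all genes called in fed mice, of any class, 97.9% had the same sign in each state. In the same direction, 75.9% of them were called in fasted and 72.9% in leptin-treated mice. For the called genes of the 4 classes these shares were 82.6% and 78.7%.

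**Figure D4:**
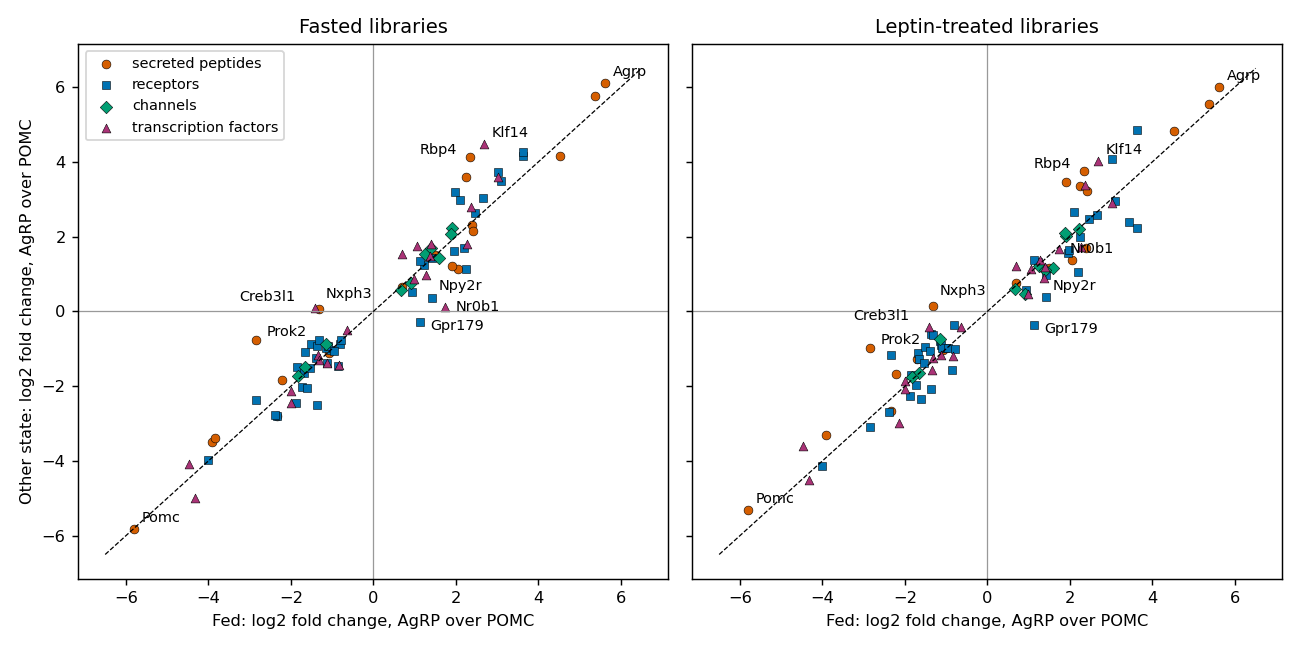
Log2 fold change (AgRP over POMC) of the 95 called genes in fed libraries (x axis) against that in fasted (left) and leptin-treated (right) libraries (y axis), for genes tested in both, with the dashed line marking equal values. The sign is the same in 89 of 92 genes on the left and in 92 of 94 on the right, and Prok2, Npy2r, Nr0b1, Gpr179, Nxph3 and Creb3l1 lie nearer 0 or across it in fasted mice, while Klf14, Rbp4 and Thbs1 lie above the line.

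Agrp and Pomc held their differences in each state (log2 6.11 and -5.82 in fasted mice, 5.99 and -5.31 in leptin-treated mice). Among genes with a smaller difference outside the fed state, Npy2r had a log2 fold change of 1.42 in fed, 0.37 in fasted (edgeR adjusted p = 0.357) and 0.38 in leptin-treated mice (0.342). Prok2 went from -2.84 to -0.76 and -0.97, neither of which passed. Creb3l1 was at -1.42, 0.09 and -0.42, and Gpr179 at 1.12, -0.30 and -0.37. Larger outside the fed state were the log2 fold changes of Klf14 (2.69 in fed, 4.48 in fasted and 4.01 in leptin-treated mice), Rbp4 (2.34, 4.12 and 3.75) and Thbs1 (2.24, 3.60 and 3.34). Lepr, not called in fed mice, was at 2.62 in fasted (edgeR adjusted p = 0.00217) and 2.77 in leptin-treated mice (0.00609). The change of the AgRP minus POMC difference from fed to fasted was tested as an interaction over 17 libraries by edgeR. It passed in 17 of 13453 genes, with 1179 at an unadjusted p under 0.05 and 0 of the 95 called genes among those 17. The model took all libraries as independent. In limma, libraries with the same cell type and replicate number in different states correlated at 0.657, and the interaction was not fitted with that block. Among the 95 genes the smallest interaction adjusted p was 0.0759, for Creb3l1, and it was 0.369 for Npy2r, 0.141 for Prok2 and 0.323 for Lepr.

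Open chromatin was available for AgRP neurons only, as ATAC-seq of sorted AgRP-positive and AgRP-negative ARC nuclei (2 libraries each, feeding state not given in their labels). The negative nuclei are all other arcuate nuclei and not POMC neurons alone. Peaks that reached within 2000 bases of a start site were taken. Of 46 genes of the 4 classes higher in AgRP neurons with such a peak, 23 had a peak more open in AgRP-positive nuclei (50.0%) and 3 a less open one. For the 40 lower genes with a peak, 4 had a more open one and 12 a less open one (30%). Over 12075 genes with a peak, 3.64% had a more open and 13.8% a less open one, while 24.1% of 66560 peaks were more open and 15.3% less open.

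The peak whose centre lay 347 bases from an Agrp start site was at 83.5 and 83.5 CPM in AgRP-positive and 7.02 and 8.89 CPM in AgRP-negative nuclei (log2 3.39 ± 0.16 SE). The Npy peak over the promoter printed above was at 25.9 and 22.2 against 4.06 and 2.96 CPM (log2 2.77 ± 0.25 SE), and the Otp promoter peak at 26.2 and 17.7 against 8.87 and 5.09 CPM (log2 1.65 ± 0.23 SE). In these 3 peaks both positive libraries were above both negative ones. Another Agrp peak, at the start site of a longer transcript, was less open in AgRP-positive nuclei (51.4 and 52.6 against 79.6 and 79.0 CPM, edgeR adjusted p = 1.1e-05). The Ghsr, Vipr1 and Trpc6 peaks were also more open, by 1.4, 1.49 and 1.21 on the log2 scale. Among genes lower in AgRP neurons, Trpc7 (0.889 and 1.00 against 2.83 and 3.79 CPM), Nhlh2 (2.13 and 1.33 against 5.79 and 6.63 CPM) and 3 of the 4 Nkx2-1 peaks were less open. Pomc and Cartpt were not among them. The Pomc peak was at 3.02 and 1.67 against 0.985 and 0.592 CPM. It went the other way, higher in AgRP-positive nuclei, and did not pass (log2 1.56, edgeR adjusted p = 0.0563). The Cartpt peaks, at log2 0.64 and -0.41, did not pass either (edgeR adjusted p = 0.13 and 0.204). Nmur2, F2rl2, Esr1 and Six3, all lower in AgRP RNA, had a peak more open in AgRP-positive nuclei. The peak at the Slc17a6 start site was less open in AgRP-positive nuclei (2.76 and 3.00 against 15.4 and 13.5 CPM). Its log2 difference was -2.32 ± 0.30 SE (edgeR adjusted p = 3.1e-13). The part of RNA from other cells in the Slc17a6 level of AgRP libraries was not tested.

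**Figure D5:**
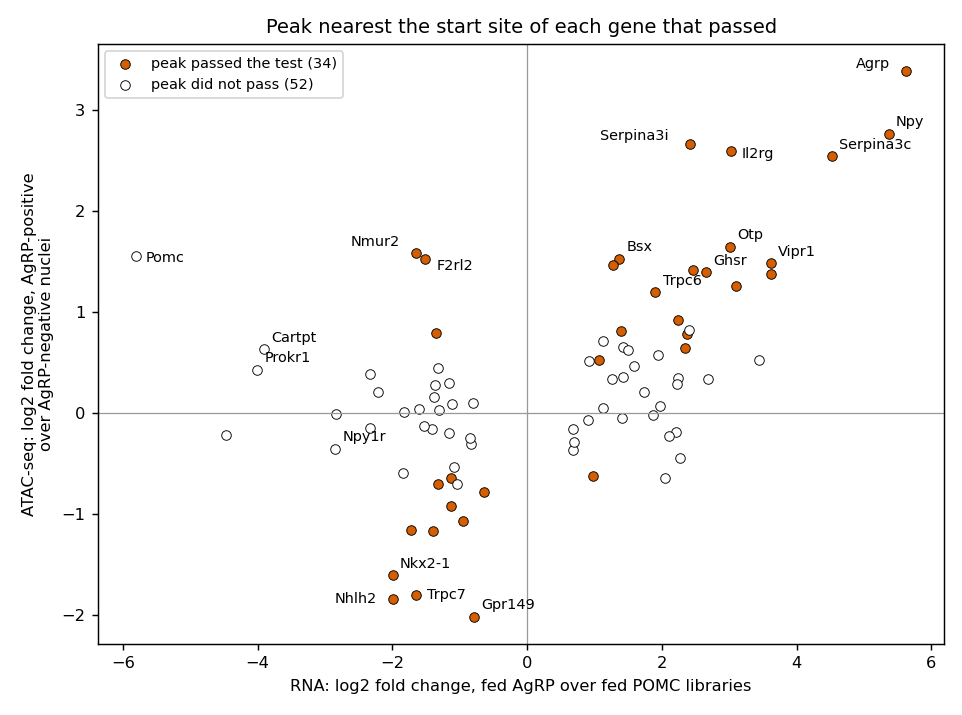
Log2 fold change of the ATAC-seq peak nearest the start site (y axis, AgRP-positive over AgRP-negative nuclei, 2 libraries each) against that of RNA (x axis, fed AgRP over fed POMC) for the 86 called genes with a peak within 2000 bases of a start site. Of the 46 genes higher in AgRP RNA 19 have a nearest peak that passed as more open and 1 as less open, and of the 40 lower genes 3 and 11.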

How the data were processed

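Ribosome-bound RNA was sequenced after Ribo-Zero depletion and Nextera XT library preparation on a NextSeq500. The authors aligned reads with HISAT2 and deposited raw counts per gene from featureCounts on an mm10 annotation changed to reduce overlapping transcripts. ATAC-seq counts per peak were deposited as raw coverage after Bowtie2, MACS2 and bedtools. Tool versions are not given in the sources used here. Counts of the 5 fed libraries were scaled by TMM and tested by edgeR 4.0.16 (R 4.3.3) quasi-likelihood for genes with a mean above 1 CPM, and a call needed both an adjusted p under 0.05 and a log2 difference beyond 0.5 on either side. CPM values carry the TMM factors. Fasted, leptin-treated and ATAC-seq libraries were tested in the same way. Genes named are the 5 largest called changes each way in each class with non-overlapping libraries, the 10 largest called changes each way of any kind, called genes of the marker, transmitter, processing and feeding signal lists with 15 fixed genes of those lists, and further called genes chosen after their values were seen. Members and lists were chosen with earlier results of these data known. Libraries are pools of 4 ARCs, and nothing in the labels ties p-values to single animals, so they measure spread between pools. Gene positions are from GENCODE M21 (GRCm38) and promoters from RefSeq. The fit was tested on simulated counts. Alternatives were DESeq2 1.42.0, limma 3.58.1, other filters and scaling, and leaving out each library. The kind of library was added as a covariate after seeing the data. Values of a few genes that these counts include are not reported here.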

Additional observations from a re-analysis of the deposited data

Results flagged for a closer look

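In groups of 4 libraries, a library was set aside for a closer look when its gap to the nearest other library was above Dixon's 95% critical value over the group's range, which chance gives in about 1 in 20 groups. The fed groups, with 3 and 2 libraries, were too small for this. The number of groups searched is not given here, so the flags cannot be set against the number that chance would give. In fasted AgRP libraries, Tnfrsf11b was lowest in library 4 (0.684 CPM), Gad2 was highest in library 4 (1083 CPM), Nr0b1 was highest in library 1 (2.32 CPM) and Fmod was highest in library 3 (9.819 CPM). In AgRP libraries of leptin-treated mice, library 4 was highest for Cdc20b (1.219 CPM), Mpzl2 (0.7133 CPM) and Glp1r (17.42 CPM) and lowest for Npy5r (5.172 CPM). Library 4 of each state is of the kind with the high Slc1a2 share, and the part of that share in these values was not tested.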

How the results depend on the processing

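With 3 and 2 pooled libraries, counts of calls moved with single libraries and with the tool. Direction held for each of the 95 genes in every fit that tested it, which their non-overlapping libraries all but fixed in advance. Among all genes in fed mice, 147 were higher and 146 lower, against 326 and 329 by DESeq2, 307 and 344 with the kind of library as a covariate and 228 and 245 in the 3 libraries of the low Slc1a2 share, both chosen after seeing the data, 222 higher in a model of all 17 libraries and 228 lower with no filter on low counts. Leaving out 1 library gave 22 to 150 higher and 11 to 132 lower, with 22 and 11 without AgRP fed 1, 80 and 53 without AgRP fed 3, 46 and 33 without POMC fed 1 and 72 and 88 without POMC fed 2. In the 4 classes, 48 higher and 47 lower genes became 74 and 100 by DESeq2, 73 and 104 with the covariate, 75 lower with no filter, 78 lower in the 3 libraries, and 10 to 47 higher and 7 to 49 lower when 1 library was left out. Scaling by library size alone shifted the median of all genes by 0.0932 (log2) and left 90 of the 95 called.

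In fasted mice 595 higher and 370 lower genes became 1032 and 648 by DESeq2, and 222 to 1381 and 83 to 1661 when 1 library was left out, the largest counts without AgRP fasted 4. In leptin-treated mice 369 and 259 became 789 and 489 by DESeq2, and 53 to 978 and 26 to 980, the largest counts without AgRP leptin 4 and the smallest without POMC leptin 1. In open chromatin, the 23 higher genes with a more open peak became 40 when the gene body and 10000 bases on each side were searched. That was 83.3% of 48 genes, and 8 had a less open peak. Over all genes 32.2% had a more open peak in this wider window, against 3.64% near a start site. Of 45 lower genes with a peak in the wider window, 18 had a more open and 18 a less open one (40% each). Over all genes these shares were 32.2% and 33.3%. Scaling by library size alone changed the split of peaks from 16032 more and 10177 less open to 18230 and 7133. The cause of these changes was not tested.

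No paired analysis was possible within the fed comparison because the groups share a single replicate number and come from different mouse lines. In limma over 17 libraries with a replicate block, 226 genes were higher and 224 lower, and 88 of the 95 stayed called.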
